A study of Homo sapiens with 12 samples.

Results

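WNT ligands, their receptors and the genes that hold the pathway back were followed in 12 poly(A) RNA libraries of VCaP prostate cancer cells. The 43 genes came from a fixed list of symbols, chosen with earlier results of these data known. They were matched to the gene identifiers of the count files, which hold 58381 genes. Every symbol matched 1 identifier, and 38 of the 43 genes had enough counts to be tested among 19162 genes. VCaP is an established androgen-sensitive cell line of human prostate cancer, and 2 sublines had been derived from it by long culture in RPMI medium with charcoal-stripped serum. The groups were VCaP-CT cells treated with 10 nM T for 48 h (rechallenge), VCaP-CT cells in their maintenance medium of 0.1 nM T, VCaP-T cells moved to 0.1 nM T for 48 h (depletion), and VCaP-T cells in their maintenance medium of 10 nM T, with 3 libraries in each and T standing for testosterone. VCaP-CT had been derived from an earlier passage of VCaP-T by culture at 0.1 nM T, and the cells used were at passage 73 for VCaP-CT and passage 84 for VCaP-T, so that line, passage number and adaptation to low T cannot be told apart. At either dose, 1 line was in its maintenance medium and the other had been moved to that dose 48 h before. In comparisons of the lines at 1 dose, line and time at the dose therefore cannot be told apart either.

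WNT proteins are lipid-modified secreted ligands that bind Frizzled receptors on the cell surface. In the canonical branch, a Frizzled and the co-receptor LRP5 or LRP6 bind WNT together, β-catenin escapes its destruction complex, and TCF/LEF factors then switch on target genes that include the feedback inhibitors AXIN2, NKD1, RNF43, ZNRF3 and NOTUM. In the noncanonical branch, ligands such as WNT5A act through Frizzleds and the receptors ROR1, ROR2 and RYK on cell polarity and calcium, and can oppose the canonical branch. In prostate cells β-catenin is known to bind the androgen receptor as well as TCF/LEF factors.

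Total counts were 30.2 to 40.8 M per library (M, 1e6). Values per library are counts scaled by edgeR's TMM factors to the mean library and are called normalized counts here, while levels are compared between genes only as FPKM, fragments per kb of exon and per M fragments. A gene is said to have risen, fallen or passed where edgeR's quasi-likelihood test over all 4 groups gave an adjusted p under 0.01. The study's own thresholds also ask that the log2 fold change exceed 1 in size and that the medians of the groups lie over 13 normalized counts apart. Whether the 3 libraries of a group were grown apart is not said in the labels, and the p-values therefore cover only the spread among these libraries, which may be technical. A log2 fold change is given ± an SE, which edgeR does not report. It was computed here as the size of the fold change over the square root of the test's F value. Gene positions are those of the count files, on GRCh38. Replicate 2 of depleted VCaP-T stood apart, with correlations of 0.9621 and 0.9665 to the other 2 libraries of its group against 0.9917 or higher for every other pair of replicates. All 10 luminal and VCaP markers were tested, with summed levels of 2680.0 to 2787 FPKM in rechallenged VCaP-CT, 1882 to 1899 FPKM in VCaP-CT at 0.1 nM T, 1861 to 2049.8 FPKM in depleted VCaP-T and 2842 to 2897 FPKM in VCaP-T at 10 nM T.

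Some upstream sequence of 4 members is shown because WNT5A was the member whose T response differed between the lines, FZD5 and FZD8 moved together, and LEF1 had the highest level of all. The runs come from the RefSeq promoter windows of GRCh38.p14 and were limited to the 250 bases before the RefSeq start, 5′ to 3′ on the gene's strand. Stretches within annotated exons were left out, which removed 92 bases for WNT5A. LEF1 is an exception, because its whole window lies in a first exon of other LEF1 transcripts. Only its last 30 bases are shown, which were taken because they hold the motif marked in capitals. The RefSeq starts of WNT5A and LEF1 lie within the spans that the count files give these genes. Capitals mark AGAACA, the half-site that the androgen receptor can bind.
WNT5A, chr3:55487399-55487556, minus strand: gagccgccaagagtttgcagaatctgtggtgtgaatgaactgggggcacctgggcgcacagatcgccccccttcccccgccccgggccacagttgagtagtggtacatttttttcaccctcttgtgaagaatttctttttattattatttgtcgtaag
FZD5, chr2:207769907-207770156, minus strand: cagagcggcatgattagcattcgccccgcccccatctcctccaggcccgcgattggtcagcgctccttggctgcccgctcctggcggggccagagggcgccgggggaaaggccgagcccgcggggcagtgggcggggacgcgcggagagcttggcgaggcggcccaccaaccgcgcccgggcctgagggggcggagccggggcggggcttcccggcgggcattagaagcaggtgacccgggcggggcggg
FZD8, chr10:35642297-35642546, minus strand: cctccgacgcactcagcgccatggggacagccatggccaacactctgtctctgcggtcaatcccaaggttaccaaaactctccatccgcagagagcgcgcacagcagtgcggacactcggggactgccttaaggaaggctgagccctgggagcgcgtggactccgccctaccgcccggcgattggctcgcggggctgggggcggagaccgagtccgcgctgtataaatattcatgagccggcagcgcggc
LEF1, chr4:108166302-108166331, minus strand: ggttttaaacagcgcgtttaAGAACAcctc
Of the 43 members 27 matched a RefSeq promoter entry. AGAACA, searched on both strands, was in 2 of the 27 windows (7.4%), those of RNF43 and LEF1, against 12.4% of 27305 windows of the same length. The TCF/LEF core, CTTTGAT or CTTTGAA on either strand, was in 1 of the 27 (3.7%), that of DKK1, against 6.0% of all windows. The members' windows had a median GC content of 69.2% and a median of 24 CpG dinucleotides, against 58.0% and 11 over all windows.

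The highest levels among the members were those of a TCF/LEF factor and several receptors. LEF1, the TCF/LEF factor of highest level, averaged 36.4 FPKM in rechallenged VCaP-CT, 44.6 in VCaP-CT at 0.1 nM T, 52.6 in depleted VCaP-T and 33.7 in VCaP-T at 10 nM T. The next highest mean levels over the 12 libraries were those of the R-spondin receptor LGR4 (14.1 FPKM), the noncanonical receptor RYK (11.5 FPKM), FZD4 (9.49 FPKM), FZD5 (8.22 FPKM) and the secreted inhibitor SFRP1 (7.45 FPKM). Summed over the 10 Frizzleds, levels were 48.9 to 49.3 FPKM in rechallenged VCaP-CT, 27.7 to 29.0 FPKM in VCaP-CT at 0.1 nM T, 30.3 to 30.6 FPKM in depleted VCaP-T and 41.1 to 41.9 FPKM in VCaP-T at 10 nM T. In both lines the summed Frizzled level was thus the higher one at 10 nM T, with no overlap between the libraries. The 4 noncanonical ligands summed to 1.89 to 1.97 FPKM in rechallenged VCaP-CT, 3.89 to 4.08 in VCaP-CT at 0.1 nM T, 1.58 to 1.90 in depleted VCaP-T and 0.780 to 0.864 in VCaP-T at 10 nM T.

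**Figure D1:**
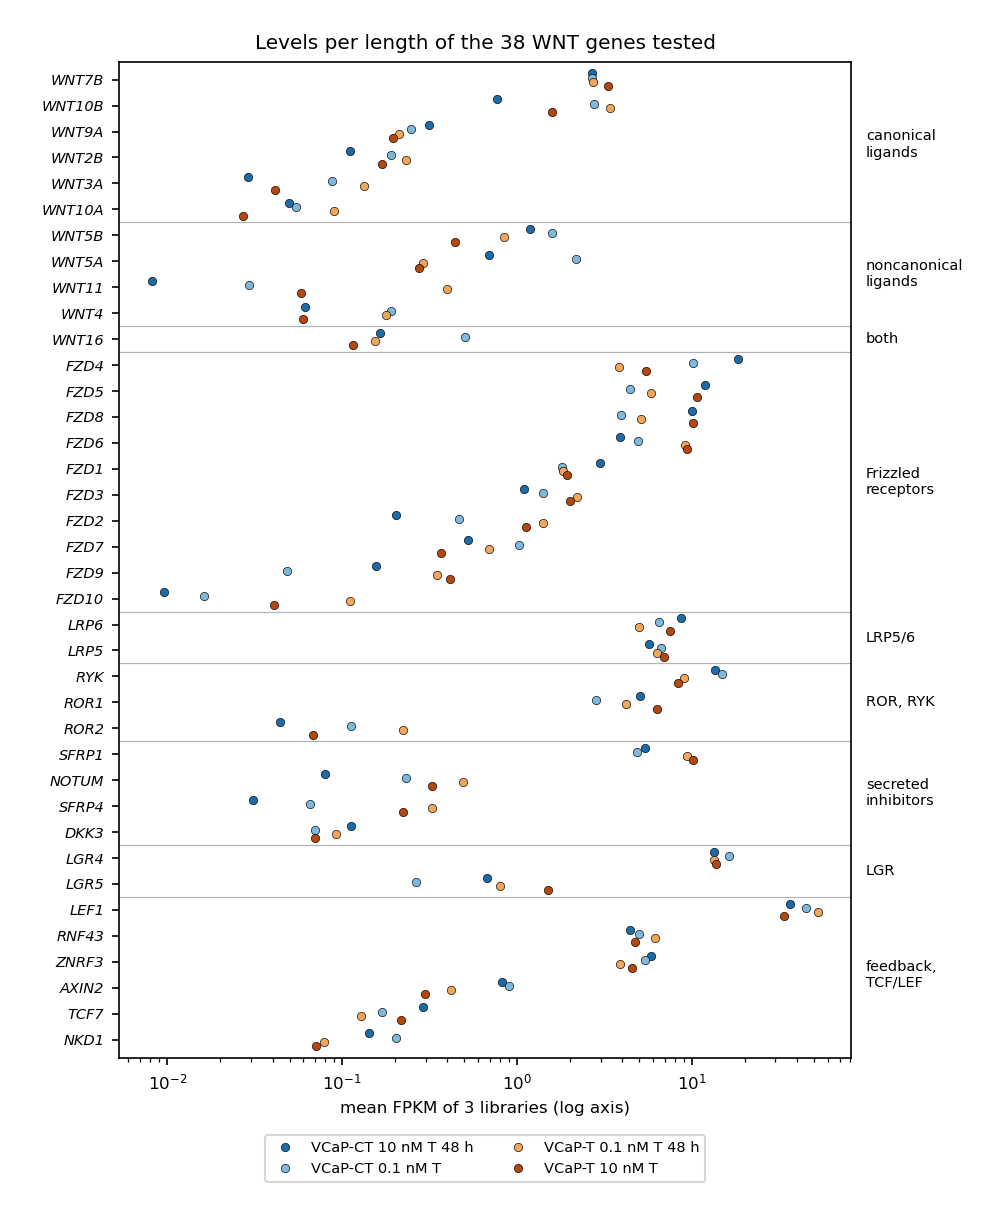
Mean level (FPKM, log axis) of each of the 38 tested WNT genes in the 4 groups, ordered by role and, within a role, by level, each point being the mean of 3 libraries. LEF1 lies highest in all 4 groups, at 33.7 to 52.6 FPKM, and FZD4 and RYK lie to the right in both VCaP-CT groups.

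The first comparison asked which of these genes answer to T in VCaP-T cells. On depletion 6 of the 38 tested members rose, against 6.15% of all genes tested, and 4 fell, against 3.83%. The 6 were the ligands WNT10B, WNT4 and WNT5B, the receptors ROR2 and FZD7, and LEF1, and the 4 were FZD5, FZD8, LGR5 and TCF7. WNT10B, WNT4 and ROR2 also met the study's thresholds, which 2.46% of all genes did in this direction. The median log2 fold change was 0.15 over the 38 members and 0.04 over all genes. Fitted on the 6 VCaP-T libraries alone, edgeR gave 0 members that rose (9 at an unadjusted p under 0.05, and 7 by DESeq2 on all 12 libraries) and 2 that fell. Without replicate 2 of depleted VCaP-T, 11 members rose and 7 fell. Calls over all genes grew as well, from 1911 to 5320 in both directions together. In bulk RNA fewer cells with a transcript and less of it per cell cannot be told apart.

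The second comparison asked the same of VCaP-CT cells given back 10 nM T. On rechallenge 8 members rose, against 7.07% of all genes tested, and 7 fell, against 7.19%. Those that rose were FZD1, FZD4, FZD5, FZD8, FZD9, ROR1, LGR5 and TCF7, and those that fell were WNT4, WNT5A, WNT10B, WNT16, FZD7, ROR2 and LEF1. FZD5, FZD8 and LGR5 met the study's thresholds among the first (1.83% of all genes), and WNT4, WNT5A, WNT10B, WNT16 and ROR2 among the second (3.30% of all genes). The median log2 fold change was -0.26 over the members and -0.02 over all genes. Without replicate 2 of depleted VCaP-T, which this contrast does not use but whose spread enters the fit, 9 members rose and 15 fell, and without replicate 1 of VCaP-CT at 0.1 nM T, 5 rose and 4 fell. Over all genes 7184 passed in the first of these fits and 1674 in the second, against 2732 with all libraries.

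The members that changed in both comparisons were then counted. Of the 10 members that changed on depletion 9 changed the opposite way on rechallenge, which is 90.0% of the first set and 60.0% of the 15 in the second, and 0 changed the same way. WNT5B was the tenth, with -0.42 ± 0.11, adjusted p = 0.0152 on rechallenge (edgeR). Over all genes tested the opposite-sign overlap was 1126 genes, 58.9% of the first set and 41.2% of the second, and 17 genes changed the same way. The 2 comparisons share no libraries. With a library left out, the share of the first set fell to 50% of the members (3 of 6) against 70.3% of all genes without replicate 2 of VCaP-T at 10 nM T, and to 55.6% of the members (5 of 9) without replicate 2 of VCaP-CT at 0.1 nM T or any rechallenged library, where all genes gave 51.5 to 53.7%. Without replicate 2 of depleted VCaP-T it was 83.3% of the members (15 of 18) against 70.0% of all genes. The excess of the members over all genes thus depended on which libraries were in the fit. In each of the 12 fits 0 members changed the same way, but few of all genes did either. Over all genes 3 to 94 changed the same way in these fits, the 94 beside 3722 of opposite sign.

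**Figure D2:**
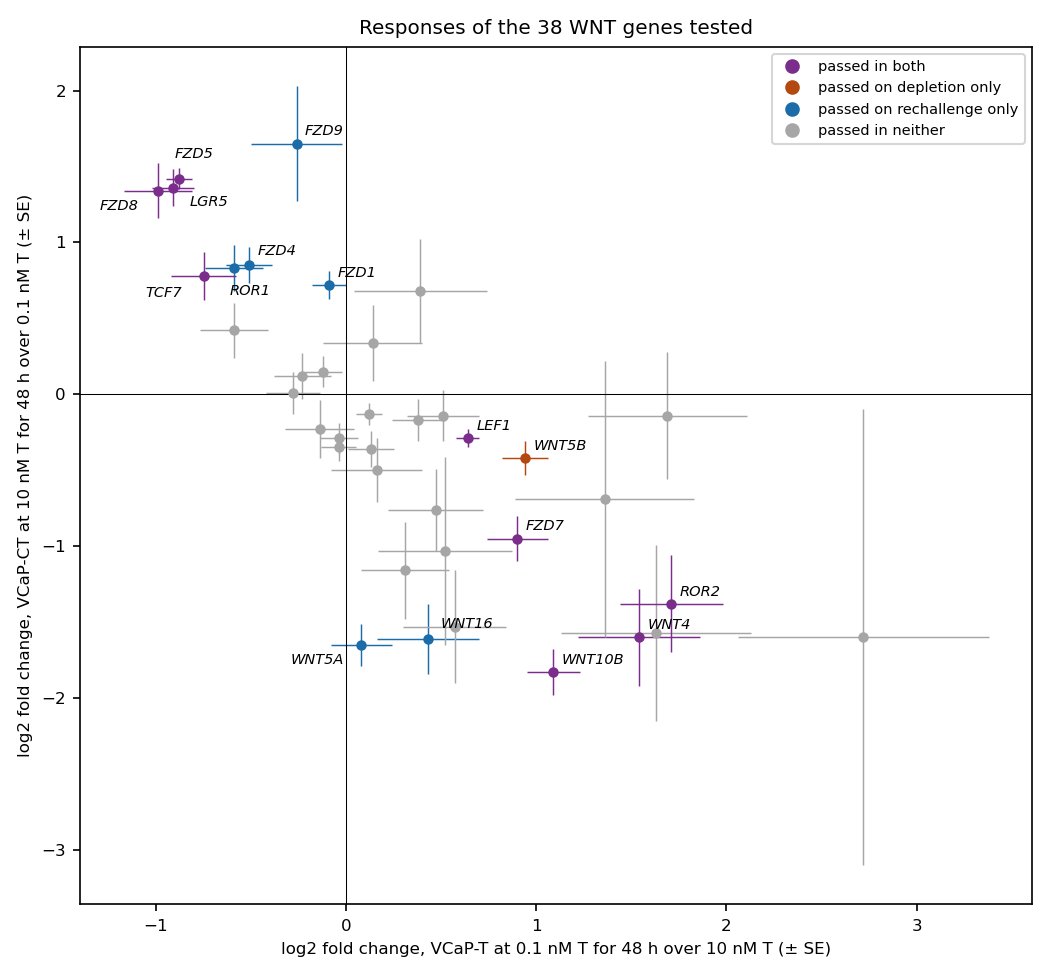
Log2 fold change of each tested WNT gene on depletion of VCaP-T (horizontal axis) and on rechallenge of VCaP-CT (vertical axis), with bars of ± SE computed from edgeR's F values. Colours mark the genes that passed in both, 1 or neither comparison. The 9 genes that passed in both lie to the upper left or the lower right of the origin, and WNT5A lies near 0 on the horizontal axis and at -1.65 on the vertical one.

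Among the ligands, WNT5A, the prototype of the noncanonical branch (ENSG00000114251.14, chromosome 3, 55465715 to 55490539, minus strand), was higher in VCaP-CT than in VCaP-T at both doses of T. It had 177, 189 and 175 normalized counts in rechallenged VCaP-CT, 573, 551 and 582 in VCaP-CT at 0.1 nM T, 78.5, 54.3 and 92.8 in depleted VCaP-T, and 77.5, 68.5 and 68.6 in VCaP-T at 10 nM T. All 3 VCaP-CT libraries at 0.1 nM T lay above every other library, and the rechallenged ones lay above both VCaP-T groups. WNT5A fell on rechallenge (log2 fold change -1.65 ± 0.14, edgeR adjusted p = 6.49e-06) to 180.4 ± 7.59 normalized counts in rechallenged VCaP-CT, against 569 ± 15.9 at 0.1 nM T (SD, n = 3 each). It averaged 75.2 ± 19.5 in depleted VCaP-T and 71.5 ± 5.17 in VCaP-T at 10 nM T, with no change detected on depletion (log2 fold change 0.08 ± 0.16, edgeR adjusted p = 0.741). The difference between the 2 responses to T, VCaP-CT minus VCaP-T, passed for WNT5A (log2 difference -1.57, SE 0.22, adjusted p = 0.00237 from edgeR). It was the 1 member that passed with a lower response in VCaP-CT, against 0.162% of all genes, and 0 members passed with a higher one, against 0.804% (8 at an unadjusted p under 0.05 by edgeR, 3 adjusted by DESeq2). The call was lost when any 1 of 6 libraries was left out, replicates 1 and 2 of VCaP-T at 10 nM T, 1 and 3 of VCaP-CT at 0.1 nM T and 1 and 3 of rechallenged VCaP-CT (adjusted p up to 0.0122), and without replicate 2 of depleted VCaP-T the difference was -1.40.

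WNT5B, a close relative of WNT5A (ENSG00000111186.12, chromosome 12, 1529891 to 1647243, plus strand), was also higher in VCaP-CT but answered to T in VCaP-T as well. It had 177, 175 and 186 normalized counts in rechallenged VCaP-CT, 251, 237 and 230.4 in VCaP-CT at 0.1 nM T, 123, 146 and 117 in depleted VCaP-T, and 64.8, 69.4 and 65.9 in VCaP-T at 10 nM T. The 4 groups did not overlap. It rose on depletion (log2 fold change 0.94 ± 0.12, edgeR adjusted p = 0.00025), and was higher in VCaP-CT than in VCaP-T in maintenance medium (log2 fold change 1.84 ± 0.12, edgeR adjusted p = 1.41e-07), at 0.1 nM T (0.90 ± 0.11, adjusted p = 4.48e-05) and at 10 nM T (1.42 ± 0.12, adjusted p = 2.17e-06).

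WNT16, a ligand reported to act in both branches (ENSG00000002745.12, chromosome 7, 121325367 to 121341104, plus strand), was highest in VCaP-CT at 0.1 nM T. It had 19.7, 18.7 and 18.1 normalized counts in rechallenged VCaP-CT, 58.2, 49.2 and 66.1 in VCaP-CT at 0.1 nM T, 19.2, 11.1 and 22.7 in depleted VCaP-T, and 13.8, 13.3 and 12.8 in VCaP-T at 10 nM T. The 3 libraries of VCaP-CT at 0.1 nM T stood above the other 9, while rechallenged VCaP-CT lay within the range of depleted VCaP-T. WNT16 fell on rechallenge (log2 fold change -1.61 ± 0.23, edgeR adjusted p = 0.000292), and was higher in VCaP-CT in maintenance medium (2.11 ± 0.23, adjusted p = 1.69e-05) and at 0.1 nM T (1.68 ± 0.23, adjusted p = 8.73e-05). At 10 nM T the difference between the lines did not pass (0.50 ± 0.27, adjusted p = 0.18, edgeR), nor did the depletion value in VCaP-T (0.43 ± 0.27, adjusted p = 0.275). The difference of its 2 responses was -1.18 (adjusted p = 0.121 from edgeR) and did not pass.

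WNT10B, a canonical ligand (ENSG00000169884.13, chromosome 12, 48965340 to 48971763, minus strand), was high at 0.1 nM T in both lines. It had 76.3, 64.4 and 73.6 normalized counts in rechallenged VCaP-CT, 279.8, 237 and 245 in VCaP-CT at 0.1 nM T, 259, 332 and 353 in depleted VCaP-T, and 160.3, 144 and 137 in VCaP-T at 10 nM T. In each line the libraries at 0.1 nM T lay above those at 10 nM T. WNT10B rose on depletion (log2 fold change 1.09 ± 0.14, edgeR adjusted p = 0.000216) and fell on rechallenge (log2 fold change -1.83 ± 0.15, edgeR adjusted p = 4.11e-06). WNT4, a ligand best known from kidney and gonad development (ENSG00000162552.14, chromosome 1, 22117305 to 22143969, minus strand), did the same at few counts. It had 7.38, 11.4 and 10.7 normalized counts in rechallenged VCaP-CT, 30.8, 34.1 and 26.1 in VCaP-CT at 0.1 nM T, 35.1, 30.9 and 18.6 in depleted VCaP-T, and 6.37, 9.51 and 12.8 in VCaP-T at 10 nM T. It rose on depletion (log2 fold change 1.54 ± 0.32, edgeR adjusted p = 0.00543) and fell on rechallenge (log2 fold change -1.6 ± 0.32, edgeR adjusted p = 0.00317). Leaving out 1 library ended its depletion call for 4 libraries (replicates 1 and 2 of VCaP-T at 10 nM T, replicate 1 of depleted VCaP-T and replicate 1 of VCaP-CT at 0.1 nM T) and its rechallenge call for 5 (replicates 1 and 2 of VCaP-CT at 0.1 nM T and every rechallenged library), with adjusted p up to 0.027 and 0.0187. Between the lines, WNT4 was higher in VCaP-CT in maintenance medium (log2 fold change 1.64). WNT10B was higher in VCaP-CT in maintenance medium (0.79) and lower at 10 nM T (-1.04). These line calls held with any 1 library left out.

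WNT11, a noncanonical ligand of cell movement in the embryo (ENSG00000085741.12, chromosome 11, 76186325 to 76210736, minus strand), was seen mainly in depleted VCaP-T. It had 0, 2.08 and 0 normalized counts in rechallenged VCaP-CT, 3.42, 0 and 4.01 in VCaP-CT at 0.1 nM T, 20.9, 45.7 and 34.0 in depleted VCaP-T, and 7.43, 0 and 7.32 in VCaP-T at 10 nM T. Every depleted VCaP-T library was above the other 9, but 4 of the 12 libraries had 0 counts. Its depletion value missed the threshold (log2 fold change 2.72 ± 0.66, edgeR adjusted p = 0.0126) and passed without replicate 2 of that group (2.44, adjusted p = 0.00286). At 0.1 nM T it was lower in VCaP-CT than in depleted VCaP-T (-3.66 ± 0.74, adjusted p = 0.00167). WNT7B, with WNT10B one of the 2 canonical ligands of highest level, differed little. It had 475, 421 and 536 normalized counts in rechallenged VCaP-CT, 478, 466 and 481 in VCaP-CT at 0.1 nM T, 522, 387 and 537 in depleted VCaP-T, and 638, 615 and 505 in VCaP-T at 10 nM T, and passed in none of the comparisons.

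The other canonical ligands tested, WNT2B, WNT3A, WNT9A and WNT10A, passed in no comparison and had group means of 0.0271 to 0.314 FPKM. WNT3, WNT6 and WNT7A had 17, 6 and 2 counts in all 12 libraries together and were not tested. In rechallenged VCaP-CT WNT3 and WNT6 had 0 counts in all 3 libraries, which allows up to 3 counts in each by counting error. ST7L overlaps 21.2% of the exon bases of WNT2B.

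The summed level of markers of fibroblasts and smooth muscle was also higher at 0.1 nM T in both lines. The 10 listed markers, of which 4 were tested, summed to 1.07 to 1.30 FPKM in rechallenged VCaP-CT, 8.56 to 9.56 in VCaP-CT at 0.1 nM T, 4.31 to 4.61 in depleted VCaP-T and 1.04 to 1.30 in VCaP-T at 10 nM T. LUM made up most of the sum at 0.1 nM T, with 8.36 FPKM in VCaP-CT at 0.1 nM T and 2.83 FPKM in depleted VCaP-T. Of the 4 tested markers LUM (3.85 ± 0.20, adjusted p = 3.02e-07) and COL1A1 (0.91 ± 0.17, adjusted p = 0.00288) rose on depletion, and LUM (-3.75 ± 0.17, adjusted p = 5.13e-08), COL1A1 (-1.45 ± 0.25, adjusted p = 0.00113) and PDGFRB (-1.34 ± 0.32, adjusted p = 0.00883) fell on rechallenge, by edgeR. The fourth, ACTA2, passed in neither. The other 6, COL1A2, COL3A1, DCN, PDGFRA, FAP and THY1, had too few counts to be tested. The part of these markers in the ligand results was not tested.

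**Figure D3:**
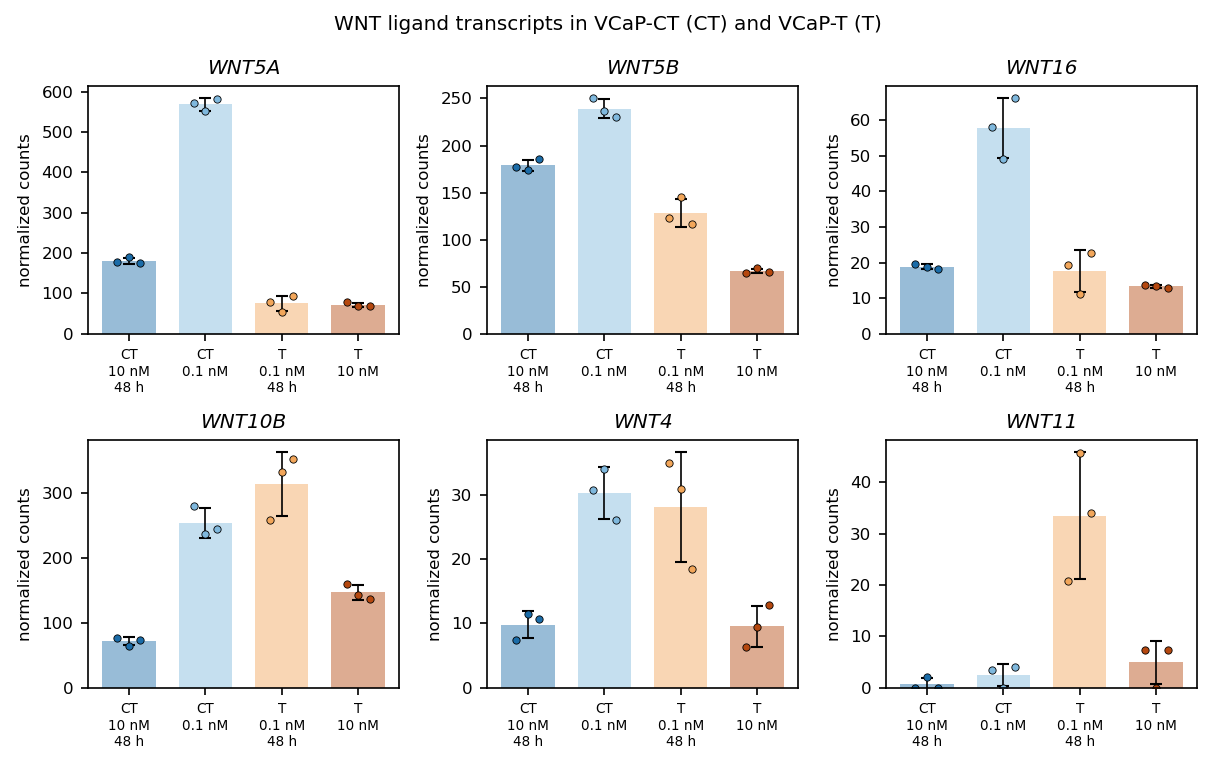
Normalized counts of 6 WNT ligands in the 4 groups, with 1 point per library, bars at the group mean and error bars of 1 SD (n = 3 each). WNT5A and WNT16 are highest in VCaP-CT at 0.1 nM T, WNT10B and WNT4 are high at 0.1 nM T in both lines, and WNT11 is highest in depleted VCaP-T, at 20.9 to 45.7 normalized counts.

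FZD5 and FZD8, Frizzleds of the canonical branch, were higher at 10 nM T in both lines. FZD5 (ENSG00000163251.3, chromosome 2, 207762586 to 207769563, minus strand) had 2803, 2823 and 2804 normalized counts in rechallenged VCaP-CT, 1030.3, 1039 and 1076 in VCaP-CT at 0.1 nM T, 1421, 1268 and 1445 in depleted VCaP-T, and 2561, 2507 and 2540.0 in VCaP-T at 10 nM T. In both lines the libraries at 10 nM T lay far above those at 0.1 nM T. It fell on depletion (log2 fold change -0.88 ± 0.07, edgeR adjusted p = 6.39e-06) and rose on rechallenge (log2 fold change 1.42 ± 0.07, edgeR adjusted p = 7.54e-08). At 10 nM T the lines were not told apart (0.15 ± 0.07, adjusted p = 0.111), while at 0.1 nM T VCaP-CT was lower than depleted VCaP-T (-0.39 ± 0.07, adjusted p = 0.000663).

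FZD8 (ENSG00000177283.7, chromosome 10, 35638249 to 35642278, minus strand) had 1415, 1334 and 1505 normalized counts in rechallenged VCaP-CT, 555, 575 and 554 in VCaP-CT at 0.1 nM T, 548, 1029.8 and 612 in depleted VCaP-T, and 1515, 1446 and 1368 in VCaP-T at 10 nM T. Replicate 2 of depleted VCaP-T, at 1029.8 normalized counts, lay between the other 2 depleted libraries and the libraries at 10 nM T. FZD8 fell on depletion (log2 fold change -0.99 ± 0.18, edgeR adjusted p = 0.00273) and rose on rechallenge (log2 fold change 1.34 ± 0.18, edgeR adjusted p = 0.000241). Its depletion call was lost without any 1 of the VCaP-T libraries at 10 nM T or without replicate 3 of depleted VCaP-T (adjusted p up to 0.0142), and without replicate 2 of depleted VCaP-T the fold change was -1.32 (adjusted p = 1.14e-10). The upstream windows of FZD5 and FZD8 shown above held 30 and 24 CpG dinucleotides and neither searched motif.

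LGR5, an R-spondin receptor and a known stem cell marker of the intestine (ENSG00000139292.12, chromosome 12, 71439770 to 71586310, plus strand), fell with low T and was lower in VCaP-CT at both doses. It had 114, 133 and 127 normalized counts in rechallenged VCaP-CT, 47.1, 51.1 and 48.1 in VCaP-CT at 0.1 nM T, 139, 145 and 158 in depleted VCaP-T, and 282, 282 and 266 in VCaP-T at 10 nM T. The lowest libraries were the 3 of VCaP-CT at 0.1 nM T, and the highest were the 3 of VCaP-T at 10 nM T. It fell on depletion (log2 fold change -0.91 ± 0.11, edgeR adjusted p = 0.000111) and rose on rechallenge (log2 fold change 1.36 ± 0.12, edgeR adjusted p = 7.71e-06). In maintenance medium it was lower in VCaP-CT than in VCaP-T (-2.50 ± 0.12, adjusted p = 8.79e-09), as it was at 0.1 nM T (-1.59 ± 0.12, adjusted p = 6.22e-07) and at 10 nM T (-1.15 ± 0.11, adjusted p = 5.53e-06). LGR4, its relative, averaged 13.3 FPKM in rechallenged VCaP-CT, 16.3 in VCaP-CT at 0.1 nM T, 13.3 in depleted VCaP-T and 13.7 in VCaP-T at 10 nM T, and passed in no comparison.

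FZD4, which also serves as the receptor of the ligand Norrin (ENSG00000174804.3, chromosome 11, 86945679 to 86955391, minus strand), was higher in VCaP-CT in all 3 comparisons of the lines. It had 4769.7, 4823 and 4782 normalized counts in rechallenged VCaP-CT, 2528, 2724 and 2703 in VCaP-CT at 0.1 nM T, 1149, 763 and 1087 in depleted VCaP-T, and 1378, 1383 and 1526 in VCaP-T at 10 nM T. Both VCaP-CT groups lay above both VCaP-T groups. FZD4 rose on rechallenge (log2 fold change 0.85 ± 0.12, edgeR adjusted p = 0.000339), and its depletion value missed the threshold (-0.51 ± 0.12, adjusted p = 0.0128) and passed without replicate 2 of depleted VCaP-T (-0.36, adjusted p = 9.07e-05). It was higher in VCaP-CT than in VCaP-T at 0.1 nM T (1.40 ± 0.13, adjusted p = 3.29e-06) and at 10 nM T (1.75 ± 0.13, adjusted p = 6.22e-07). Of its exon bases 18.9% overlap PRSS23. FZD1 rose on rechallenge as well (0.72 ± 0.09, adjusted p = 0.000154), and was higher in VCaP-CT at 10 nM T (0.62 ± 0.09, adjusted p = 0.000236).

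FZD7, a Frizzled of the canonical branch in stem cells (ENSG00000155760.2, chromosome 2, 202034587 to 202038445, plus strand), went the other way and was highest in VCaP-CT at 0.1 nM T. It had 75.1, 73.8 and 66.1 normalized counts in rechallenged VCaP-CT, 154, 116 and 146 in VCaP-CT at 0.1 nM T, 89.3, 106 and 86.6 in depleted VCaP-T, and 43.5, 52.3 and 54.0 in VCaP-T at 10 nM T. It rose on depletion (log2 fold change 0.90 ± 0.16, edgeR adjusted p = 0.00236) and fell on rechallenge (log2 fold change -0.95 ± 0.15, edgeR adjusted p = 0.000772). The depletion call was lost without replicate 1 or 2 of VCaP-T at 10 nM T (adjusted p up to 0.014). In maintenance medium it was higher in VCaP-CT (1.47 ± 0.16, adjusted p = 1.29e-05).

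FZD2, FZD6 and FZD9 were lower in VCaP-CT than in VCaP-T in all 3 comparisons of the lines. FZD2, a Frizzled that binds WNT5A (ENSG00000180340.6, chromosome 17, 44557459 to 44559570, plus strand), had 9.85, 19.7 and 16 normalized counts in rechallenged VCaP-CT, 40.2, 25.6 and 38.1 in VCaP-CT at 0.1 nM T, 90.1, 126 and 98.0 in depleted VCaP-T, and 89.2, 102 and 61.3 in VCaP-T at 10 nM T. FZD6, which has been described as an inhibitor of canonical signalling (ENSG00000164930.11, chromosome 8, 103298433 to 103332866, plus strand), had 555, 596 and 519 normalized counts in rechallenged VCaP-CT, 659, 717 and 747 in VCaP-CT at 0.1 nM T, 1382, 1178 and 1350.0 in depleted VCaP-T, and 1306, 1369 and 1348 in VCaP-T at 10 nM T. Neither FZD2 nor FZD6 overlapped between the lines. In maintenance medium the log2 fold change was -1.27 for FZD2 (adjusted p = 0.00163 from edgeR) and -0.92 for FZD6 (adjusted p = 5.06e-06), and at 10 nM T it was -2.44 and -1.27. The maintenance call for FZD2 was lost without replicate 2 of VCaP-CT at 0.1 nM T or replicate 2 of VCaP-T at 10 nM T (adjusted p up to 0.0102).

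FZD9, one of the less expressed Frizzleds (ENSG00000188763.4, chromosome 7, 73433783 to 73436120, plus strand), had 13.5, 10.4 and 14.9 normalized counts in rechallenged VCaP-CT, 5.13, 2.84 and 4.01 in VCaP-CT at 0.1 nM T, 26.7, 35.8 and 23.7 in depleted VCaP-T, and 39.3, 38 and 25.6 in VCaP-T at 10 nM T. It was lower in VCaP-CT in maintenance medium (log2 fold change -3.05 ± 0.33, edgeR adjusted p = 1.2e-05), at 0.1 nM T (-2.78 ± 0.33, adjusted p = 3.55e-05) and at 10 nM T (-1.40 ± 0.27, adjusted p = 0.00169). It rose on rechallenge (1.65 ± 0.38, adjusted p = 0.00759), a call at few counts that was lost with DESeq2, without the low-count filter and, of the 12 libraries, without any 1 other than replicate 3 of VCaP-T at 10 nM T or replicate 2 or 3 of depleted VCaP-T (adjusted p up to 0.0358). The call at 10 nM T was lost without replicate 2 of rechallenged VCaP-CT. FZD3, a Frizzled of planar polarity, was lower in VCaP-CT in all 3 comparisons of the lines too (-0.51, -0.63 and -0.86 on the log2 scale), though the first call, in maintenance medium, was lost without replicate 2 or 3 of VCaP-T at 10 nM T or any library of VCaP-CT at 0.1 nM T. FZD10 was lower in VCaP-CT at 0.1 nM T (-2.68 ± 0.55, adjusted p = 0.00205), where its VCaP-CT libraries had 1.71, 0.947 and 3.01 normalized counts, and the call was lost without replicate 1 or 2 of VCaP-CT at 0.1 nM T.

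The noncanonical receptors ROR1 and ROR2 moved in opposite directions. ROR1, a tyrosine kinase-like receptor of WNT5A (ENSG00000185483.11, chromosome 1, 63774022 to 64181498, plus strand), had 1239, 1215 and 1117 normalized counts in rechallenged VCaP-CT, 645, 671 and 693 in VCaP-CT at 0.1 nM T, 1157, 699 and 1132 in depleted VCaP-T, and 1446, 1519 and 1539 in VCaP-T at 10 nM T. ROR2 (ENSG00000169071.14, chromosome 9, 91563091 to 91950162, minus strand) had 12.3, 9.35 and 5.33 normalized counts in rechallenged VCaP-CT, 24.8, 20.8 and 24 in VCaP-CT at 0.1 nM T, 49.2, 33.3 and 54.7 in depleted VCaP-T, and 17.0, 11.4 and 13.7 in VCaP-T at 10 nM T. For ROR1 the 3 libraries of VCaP-CT at 0.1 nM T were the lowest of all 12, and for ROR2 the rechallenged and VCaP-T 10 nM T libraries were the lower ones. ROR1 rose on rechallenge (log2 fold change 0.83 ± 0.15, edgeR adjusted p = 0.00181) and its depletion value missed the threshold (-0.59 ± 0.15, adjusted p = 0.0162). Without replicate 2 of depleted VCaP-T, where ROR1 was lowest in its group, the depletion value was -0.39 (adjusted p = 4.88e-05), and without replicate 1 of VCaP-CT at 0.1 nM T the rechallenge call was lost (adjusted p = 0.0113).

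ROR2 rose on depletion (log2 fold change 1.71 ± 0.27, edgeR adjusted p = 0.00107) and fell on rechallenge (log2 fold change -1.38 ± 0.32, edgeR adjusted p = 0.00831), the second call being lost without any 1 library other than replicate 2 or 3 of depleted VCaP-T (adjusted p up to 0.0388). At 0.1 nM T both were lower in VCaP-CT than in depleted VCaP-T (-0.58 for ROR1 and -0.98 for ROR2), but the ROR1 call was lost without any 1 library other than replicate 2 of depleted VCaP-T, and the ROR2 call without any 1 other than that library and replicates 1 and 3 of rechallenged VCaP-CT. In maintenance medium ROR1 was lower in VCaP-CT than in VCaP-T (log2 fold change -1.16), a call that held with any 1 library left out. At 10 nM T neither ROR1 nor ROR2 passed. RYK, an atypical kinase receptor of much higher level, was higher in VCaP-CT in all 3 comparisons of the lines. It had 3871, 3913 and 3826 normalized counts in rechallenged VCaP-CT, 4188, 4200.0 and 4278 in VCaP-CT at 0.1 nM T, 2457, 2765 and 2458 in depleted VCaP-T, and 2313, 2359 and 2393 in VCaP-T at 10 nM T, with log2 fold changes of 0.84 in maintenance medium, 0.72 at 0.1 nM T and 0.72 at 10 nM T (adjusted p of 6.09e-06 or less, edgeR).

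The co-receptors LRP5 and LRP6, which a canonical WNT signal needs, passed in no comparison. LRP6 had 3096, 3299 and 3100.2 normalized counts in rechallenged VCaP-CT, 2405, 2371 and 2330.2 in VCaP-CT at 0.1 nM T, 2163, 1132 and 2110.1 in depleted VCaP-T, and 2637, 2702 and 2817 in VCaP-T at 10 nM T. Its lowest value was in replicate 2 of depleted VCaP-T, and without that library LRP6 fell on depletion (-0.35, adjusted p = 1.98e-05), where the fit on all libraries had not passed (-0.59 ± 0.18, adjusted p = 0.0364). LRP5 averaged 5.65 FPKM in rechallenged VCaP-CT, 6.64 in VCaP-CT at 0.1 nM T, 6.29 in depleted VCaP-T and 6.93 in VCaP-T at 10 nM T.

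**Figure D4:**
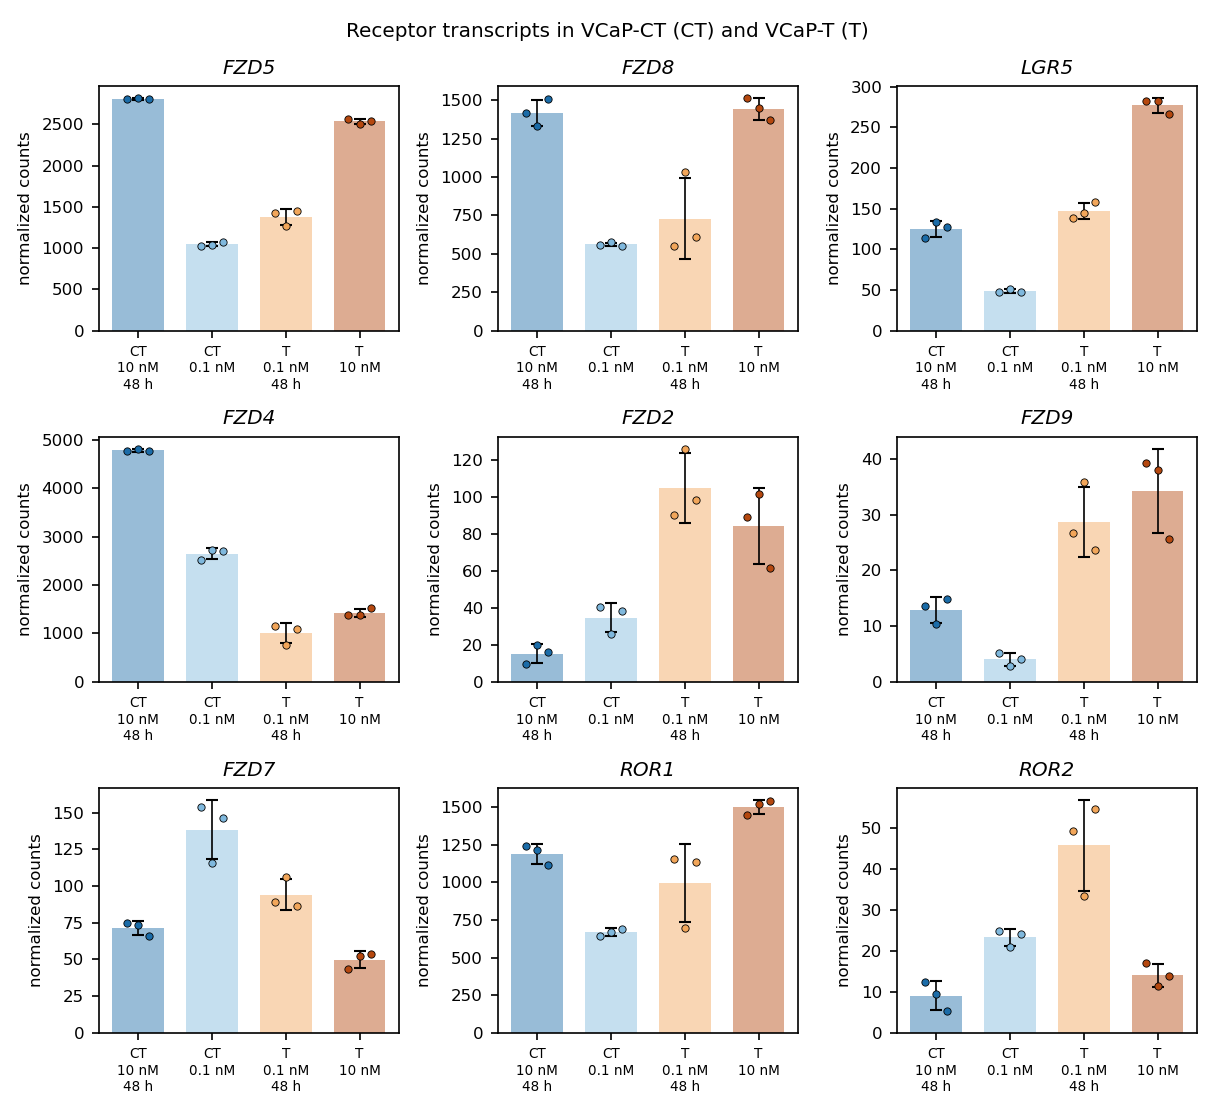
Normalized counts of 9 receptor genes in the 4 groups, with 1 point per library, bars at the group mean and error bars of 1 SD (n = 3 each). FZD5, FZD8 and LGR5 are lower at 0.1 nM T in each line, FZD4 is highest in rechallenged VCaP-CT (4769.7 to 4823 normalized counts), and FZD2 and FZD9 are lower in VCaP-CT.

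Of the secreted inhibitors, SFRP1 and SFRP4, decoys that bind WNT proteins, were lower in VCaP-CT in all 3 comparisons of the lines. SFRP1 (ENSG00000104332.11, chromosome 8, 41261958 to 41309497, minus strand) had 889.7, 879 and 954 normalized counts in rechallenged VCaP-CT, 835, 819 and 803 in VCaP-CT at 0.1 nM T, 1646, 1302 and 1754 in depleted VCaP-T, and 1698, 1689.5 and 1733 in VCaP-T at 10 nM T. All VCaP-CT libraries lay below all VCaP-T libraries. The log2 fold change was -1.06 in maintenance medium, -0.94 at 0.1 nM T and -0.91 at 10 nM T (adjusted p of 2.19e-05 or less, edgeR), and neither T response passed. SFRP4 (ENSG00000106483.11, chromosome 7, 37905932 to 38025695, minus strand) had 1.23, 6.23 and 4.27 normalized counts in rechallenged VCaP-CT, 7.70, 14.2 and 3.01 in VCaP-CT at 0.1 nM T, 26.7, 49.4 and 48.5 in depleted VCaP-T, and 28.7, 27.6 and 29.3 in VCaP-T at 10 nM T. It was lower in VCaP-CT at 0.1 nM T (log2 fold change -2.27 ± 0.42, edgeR adjusted p = 0.00094) and at 10 nM T (-2.78 ± 0.52, adjusted p = 0.00111). In maintenance medium its call (-1.75 ± 0.43, adjusted p = 0.00606) was lost without any VCaP-T library at 10 nM T, replicate 1 or 3 of VCaP-CT at 0.1 nM T or replicate 3 of rechallenged VCaP-CT (adjusted p up to 0.0275).

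NOTUM, an enzyme that removes the lipid from WNT proteins (ENSG00000185269.11, chromosome 17, 81952507 to 81961840, minus strand), had 8.61, 5.20 and 11.7 normalized counts in rechallenged VCaP-CT, 27.4, 17.0 and 30.1 in VCaP-CT at 0.1 nM T, 39.2, 69.2 and 48.5 in depleted VCaP-T, and 41.4, 32.3 and 31.1 in VCaP-T at 10 nM T. The rechallenged libraries were the lowest, and the 3 of VCaP-CT at 0.1 nM T lay between them and the VCaP-T libraries. It was lower in VCaP-CT at 10 nM T (log2 fold change -2.02 ± 0.36, edgeR adjusted p = 0.000832), and its rechallenge value missed the threshold (-1.53 ± 0.37, adjusted p = 0.0101). DKK3, a divergent relative of the Dickkopf inhibitors, passed in no comparison and had 7.32 to 23.5 normalized counts. DKK1, which blocks LRP5 and LRP6, had 1 count in all 12 libraries, and SFRP2 had 0, which allows up to 3 counts per library by counting error.

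AXIN2 and NKD1, feedback inhibitors of canonical signalling, were higher in VCaP-CT in all 3 comparisons of the lines. The other feedback inhibitors named above, RNF43, ZNRF3 and NOTUM, were not, and signalling itself was not tested. Of 20 tested β-catenin target genes outside the members, 8 were higher and 6 lower in VCaP-CT in maintenance medium. At 0.1 nM T 3 were higher and 6 lower, and at 10 nM T 7 were higher and 5 lower. The median log2 fold changes of these 20 genes were 0.15, -0.09 and 0.02. Shares of all genes are given below with the comparisons of the lines. AXIN2, a scaffold of the destruction complex (ENSG00000168646.12, chromosome 17, 65528563 to 65561647, minus strand), had 154, 160.0 and 141 normalized counts in rechallenged VCaP-CT, 152, 179.9 and 168 in VCaP-CT at 0.1 nM T, 90.1, 58.0 and 84.6 in depleted VCaP-T, and 67.9, 50.4 and 46.7 in VCaP-T at 10 nM T. NKD1, which binds Dishevelled (ENSG00000140807.6, chromosome 16, 50548330 to 50649249, plus strand), had 87.4, 101 and 74.7 normalized counts in rechallenged VCaP-CT, 123, 127 and 123 in VCaP-CT at 0.1 nM T, 44.2, 30.9 and 69.1 in depleted VCaP-T, and 45.7, 40.9 and 43.9 in VCaP-T at 10 nM T. For both genes every VCaP-CT library lay above every VCaP-T library. For AXIN2 the log2 fold change was 1.6 in maintenance medium, 1.09 at 0.1 nM T and 1.47 at 10 nM T (adjusted p of 0.000399 or less, edgeR). For NKD1 it was 1.52, 1.36 and 1.01 (adjusted p of 0.00446 or less, edgeR), and the call at 10 nM T was lost without any VCaP-T library at 10 nM T or without replicate 1 or 2 of rechallenged VCaP-CT (adjusted p up to 0.0241).

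Neither AXIN2 nor NKD1 passed on depletion (0.51, adjusted p = 0.0767 and 0.16, adjusted p = 0.676, edgeR) or on rechallenge (-0.14, adjusted p = 0.625 and -0.50, adjusted p = 0.11). Without replicate 2 of depleted VCaP-T, the lowest AXIN2 value of its group, AXIN2 rose on depletion (0.68, adjusted p = 0.0033). Exons of another annotated gene overlap 25.2% of the AXIN2 exon bases, and fragments there were left out of the counts. RNF43 and ZNRF3, ubiquitin ligases that remove Frizzleds from the surface, passed in no comparison. RNF43 had 1181, 1074 and 1258 normalized counts in rechallenged VCaP-CT, 1305, 1327 and 1319 in VCaP-CT at 0.1 nM T, 1830.3, 1199 and 1859.5 in depleted VCaP-T, and 1249, 1277 and 1229 in VCaP-T at 10 nM T. Without replicate 2 of depleted VCaP-T, the lowest of its group, RNF43 rose on depletion (0.56, adjusted p = 7.97e-07). ZNRF3 averaged 5.86 FPKM in rechallenged VCaP-CT, 5.41 in VCaP-CT at 0.1 nM T, 3.88 in depleted VCaP-T and 4.56 in VCaP-T at 10 nM T.

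LEF1, the effector to which β-catenin binds on DNA (ENSG00000138795.9, chromosome 4, 108047545 to 108168956, minus strand), was highest in depleted VCaP-T. It had 6874, 6926 and 6858 normalized counts in rechallenged VCaP-CT, 8333, 8523 and 8428 in VCaP-CT at 0.1 nM T, 9901, 9856 and 10027 in depleted VCaP-T, and 6286, 6154 and 6633 in VCaP-T at 10 nM T. In each line the libraries at 0.1 nM T lay above those at 10 nM T. LEF1 rose on depletion (log2 fold change 0.64 ± 0.06, edgeR adjusted p = 3.05e-05) and fell on rechallenge (log2 fold change -0.29 ± 0.06, edgeR adjusted p = 0.0047). The rechallenge call was lost without the low-count filter and without replicate 2 of VCaP-T at 10 nM T or any 1 VCaP-CT library (adjusted p up to 0.0265). The difference of the 2 responses did not pass (0.35, adjusted p = 0.0583 from edgeR) and passed by DESeq2 (adjusted p = 1.45e-05). TCF7, a second factor of the same family, did the reverse, falling on depletion (-0.75 ± 0.17, adjusted p = 0.00867) and rising on rechallenge (0.78 ± 0.16, adjusted p = 0.00386). Its depletion call was lost without any 1 library other than replicate 2 of depleted VCaP-T (adjusted p up to 0.0422), and its rechallenge call without replicate 1 or 3 of VCaP-CT at 0.1 nM T or any rechallenged library (adjusted p up to 0.0231).

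**Figure D5:**
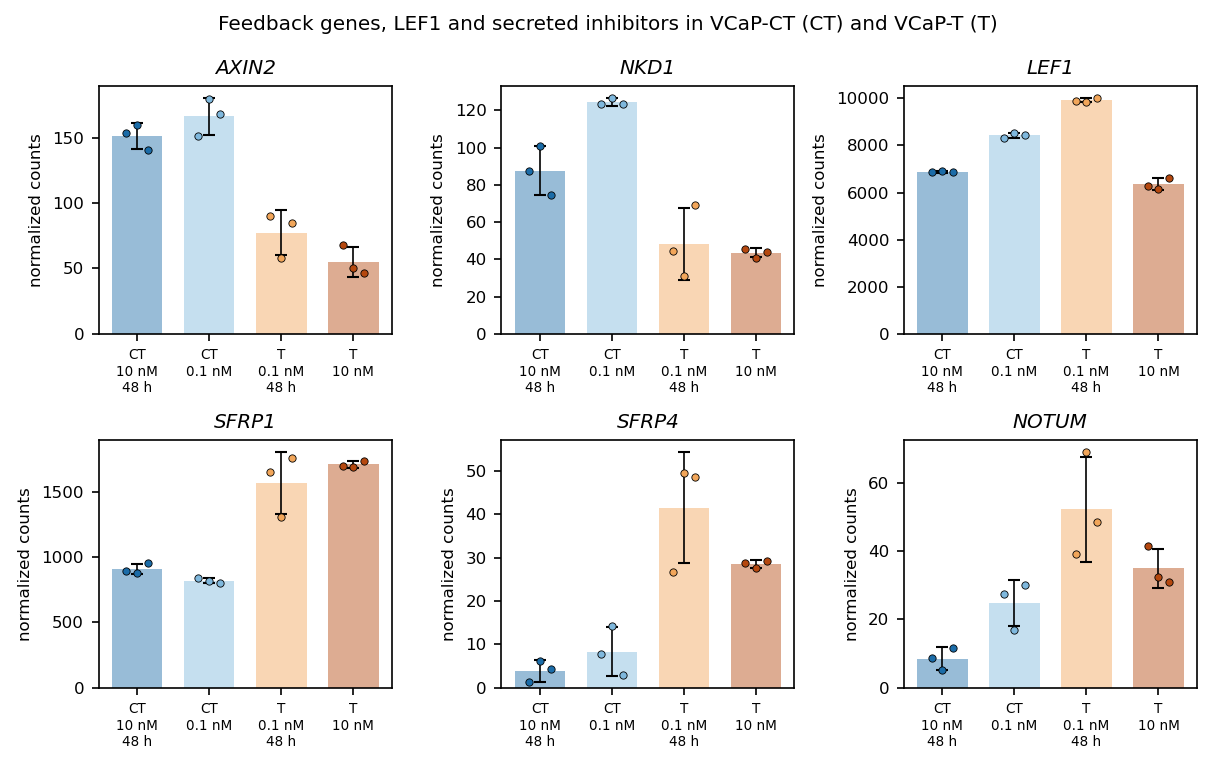
Normalized counts of 3 feedback genes or effectors and 3 secreted inhibitors in the 4 groups, with 1 point per library, bars at the group mean and error bars of 1 SD (n = 3 each). AXIN2 and NKD1 are higher in VCaP-CT, SFRP1 and SFRP4 are lower in VCaP-CT, and LEF1 is highest in depleted VCaP-T, at 9856 to 10026.5 normalized counts.

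The comparisons of the lines asked what differed between VCaP-CT and VCaP-T, in maintenance medium and at matched doses of T. At a matched dose the lines also differed in time at that dose, 48 h against maintenance. In maintenance medium 11 members were higher in VCaP-CT, against 14.8% of all genes tested, and 10 were lower, against 15.7%. At 0.1 nM T the counts were 8 higher (13% of all genes) and 13 lower (16.4%), and at 10 nM T they were 7 higher (12.0%) and 9 lower (13.2%). By the study's thresholds they were 7 higher and 8 lower in maintenance medium (5.61% and 7.06% of all genes), 5 and 5 at 0.1 nM T (3.62% and 8.68%), and 5 and 7 at 10 nM T (3.17% and 7.08%). The median log2 fold changes of the members were 0.04, -0.31 and -0.03, against 0.00, -0.02 and 0.00 over all genes. These comparisons share libraries. On the 6 libraries compared at 0.1 nM T alone, 6 members were higher and 7 lower. FZD3, FZD5 and SFRP4 were among the lower calls lost, and NKD1 among the higher ones. Without replicate 2 of depleted VCaP-T, 10 members were higher and 14 lower at 0.1 nM T.

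In all 3 comparisons of the lines, 6 members were higher in VCaP-CT, namely WNT5A, WNT5B, FZD4, RYK, AXIN2 and NKD1, where 6.13% of all genes were. Lower in all 3 were 7 members, FZD2, FZD3, FZD6, FZD9, LGR5, SFRP1 and SFRP4, where 8.30% of all genes were. Of the 38 tested members 27 passed in at least 1 of the 5 comparisons, against 46.6% of all genes, and 11 passed in none. The members were chosen with earlier results of these data known, which the comparison with all genes does not allow for.

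Markers of other cell types differed between the lines as well. The 6 neuroendocrine markers, of which 4 were tested, summed to 18.4 to 20.8 FPKM in rechallenged VCaP-CT, 16.1 to 16.6 FPKM in VCaP-CT at 0.1 nM T, 41.4 to 48.6 FPKM in depleted VCaP-T and 36.9 to 38.3 FPKM in VCaP-T at 10 nM T, with 2 of the 6 under 0.1 FPKM in every group. CHGB made up most of the sum in VCaP-T, with 26.9 FPKM in depleted VCaP-T and 19.2 FPKM in VCaP-T at 10 nM T. In maintenance medium 3 of the 4 tested were lower in VCaP-CT and 1 was higher, against 15.7% and 14.8% of all genes. Their log2 fold changes were -6.81 to 1.64. SYP was among the lower ones (-2.32 ± 0.14, adjusted p = 1.07e-07) and ENO2 was the higher one (1.64 ± 0.11, adjusted p = 2.56e-07, edgeR). The 5 blood cell markers summed to 7.62 to 8.40 FPKM in rechallenged VCaP-CT, 1.84 to 2.06 FPKM in VCaP-CT at 0.1 nM T, 38 to 45.4 FPKM in depleted VCaP-T and 37.7 to 43.1 FPKM in VCaP-T at 10 nM T. LYZ was the only one tested, and the other 4 were under 0.1 FPKM in every group. For CD68, among these 4, other annotated genes overlap 85.8% of the exon bases and fragments there were not counted. Its low value therefore does not show absence. The 5 basal markers summed to 2.91 to 3.03 FPKM in rechallenged VCaP-CT, 2.08 to 2.28 FPKM in VCaP-CT at 0.1 nM T, 2.94 to 4.40 FPKM in depleted VCaP-T and 5.77 to 6.15 FPKM in VCaP-T at 10 nM T. The part of these markers in the differences between the lines was not tested.

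Other genes of the pathway were counted by list, to be read against the shares of all genes that rose or fell, 6.15% and 3.83% on depletion and 7.07% and 7.19% on rechallenge. Of 23 tested genes of the β-catenin destruction complex and its transducers 1 passed on depletion and 1 on rechallenge, and both rose (6.15% and 7.07% of all genes). On depletion it was DACT2, which binds Dishevelled, with 74.3 ± 10.3 normalized counts in depleted VCaP-T and 22.8 ± 9.63 in VCaP-T at 10 nM T (SD, n = 3 each), an edgeR result of 1.72 ± 0.29, adjusted p = 0.0017. On rechallenge it was its relative DACT1, with 38.6 ± 8.30 in rechallenged VCaP-CT and 11.9 ± 3.46 in VCaP-CT at 0.1 nM T (log2 fold change 1.67 ± 0.33, edgeR adjusted p = 0.00313). The DACT2 call was lost without replicate 2 of VCaP-T at 10 nM T (adjusted p = 0.0116), and the DACT1 call without replicate 2 or 3 of VCaP-CT at 0.1 nM T or replicate 3 of rechallenged VCaP-CT (adjusted p up to 0.018).

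Of 20 tested β-catenin target genes outside the members, 5 rose and 1 fell on depletion (6.15% and 3.83% of all genes), and 4 rose and 1 fell on rechallenge (7.07% and 7.19% of all genes). ID2, an inhibitor of basic helix-loop-helix factors, rose on depletion (log2 fold change 1.01 ± 0.14, edgeR adjusted p = 0.000356). SNAI2, a factor of epithelial-mesenchymal transition, fell on depletion (log2 fold change -1.23 ± 0.20, edgeR adjusted p = 0.00109) and rose on rechallenge (log2 fold change 4.58 ± 0.37, edgeR adjusted p = 3.88e-06), with 54.7 ± 8.24 normalized counts in rechallenged VCaP-CT, 2.12 ± 1.93 in VCaP-CT at 0.1 nM T, 85.5 ± 2.09 in depleted VCaP-T and 200.2 ± 10.1 in VCaP-T at 10 nM T (SD, n = 3 each). MYC, a transcription factor of cell growth, fell on rechallenge (log2 fold change -1.0 ± 0.08, edgeR adjusted p = 2.74e-06).

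Among 11 tested surface or secreted modulators 1 passed on depletion, where it rose (6.15% of all genes), and 2 passed on rechallenge, where both fell (7.19% of all genes). TSPAN12, a partner of FZD4 in Norrin signalling, rose on depletion (log2 fold change 1.23 ± 0.10, edgeR adjusted p = 7.8e-06) and fell on rechallenge (log2 fold change -1.26 ± 0.10, edgeR adjusted p = 3.78e-06). It had 342 ± 35.9 normalized counts in rechallenged VCaP-CT, 819.7 ± 7.39 in VCaP-CT at 0.1 nM T, 1240.3 ± 108 in depleted VCaP-T and 529.7 ± 36.3 in VCaP-T at 10 nM T (SD, n = 3 each). TSPAN12 fell where FZD4 rose on rechallenge. GPC6, a glypican, fell on rechallenge (log2 fold change -1.35 ± 0.18, edgeR adjusted p = 0.000202).

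Of 17 tested nuclear factors of β-catenin signalling 2 rose and 1 fell on rechallenge, against 7.07% and 7.19% of all genes. The gene that fell was the corepressor TLE2 (log2 fold change -1.12 ± 0.21, edgeR adjusted p = 0.00216), whose call was lost without replicate 1 of VCaP-CT at 0.1 nM T or replicate 2 or 3 of rechallenged VCaP-CT (adjusted p up to 0.0144). Of 26 tested planar polarity and noncanonical genes 1 rose and 4 fell on rechallenge, against the same 7.07% and 7.19%. On depletion 1 nuclear factor and 1 gene of the planar polarity list rose (6.15% of all genes), and 0 of either list fell (3.83%). Of 9 tested genes of WNT secretion 4 rose on rechallenge, against 7.07% of all genes, while 0 rose and 0 fell on depletion (6.15% and 3.83% of all genes). Of 5 listed ligands outside the members 2 were tested, and WNT8B fell on rechallenge (-1.39 ± 0.28, adjusted p = 0.00311), a call lost without replicate 1 or 2 of VCaP-CT at 0.1 nM T or replicate 2 or 3 of rechallenged VCaP-CT (adjusted p up to 0.0207). WNT2, which lies 4.0 Mb from WNT16 on chromosome 7, rose on depletion (3.02 ± 0.25, adjusted p = 9.07e-06) and fell on rechallenge (-4.05 ± 0.30, adjusted p = 2.35e-06).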

How the data were processed

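RNA of VCaP-T and VCaP-CT cells was sequenced as TruSeq stranded poly(A) libraries on an Illumina HiSeq instrument. According to the methods and the file headers, the authors aligned reads with STAR 2.5.4b to GRCh38 and counted fragments with featureCounts 1.6.2 on Gencode 28. The authors deposited raw counts per gene and library, which were used here. Per the file headers strand was not used in counting, and ambiguous fragments (several genes or several alignments) were not counted, so counts of overlapping genes are too low. The authors also deposited a table of counts divided by DESeq2 size factors, a signal on a count scale, which served as an alternative for levels.

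The 12 libraries held 30.2 to 40.8 M counts (M, 1e6), and their number limits the precision. Genes were filtered by filterByExpr, scaled by TMM and tested in edgeR 4.0.16 (R 4.3.3) with the quasi-likelihood test in 1 model of 4 groups, with Benjamini-Hochberg adjustment over 19162 genes. The script was tested on simulated data. FPKM were computed from the counts and the exon lengths in the files. Intervals and floors cover counting error only. Alternatives were DESeq2 1.42.0, other scaling factors, no filter, a replicate block, only the libraries compared, and each library left out.

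The members and gene lists were chosen with earlier results of these data known. Values per library are given for members past the study's thresholds in any comparison or past the test of the difference in response, and for the 2 members of highest FPKM in each role (values or group means). Of each other list up to 4 genes of smallest p past those thresholds are named.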

Additional observations from a re-analysis of the deposited data

Results flagged for a closer look

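The response of WNT5A to T differed between the lines. The log2 fold change of 10 nM over 0.1 nM T in VCaP-CT minus that in VCaP-T was -1.57 (adjusted p = 0.00237, edgeR), with WNT5A lower at 10 nM T in all 3 rechallenged VCaP-CT libraries and no change detected in VCaP-T. It drew attention because the test of the difference itself passed. The call was lost when any 1 of 6 libraries was left out (adjusted p up to 0.0122, edgeR).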

How the results depend on the processing

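The gene results followed here were the 98 that had passed in the main fit, of members and other listed genes together. Of these 63 passed under every alternative and 0 reversed. Results chosen because they passed were unlikely to reverse, so the absence of reversals says little. On the libraries of the compared groups alone, 0 members rose on depletion (9 at an unadjusted p under 0.05, edgeR) and 2 fell, 15 fell on rechallenge, and 7 were lower in VCaP-CT at 0.1 nM T. DESeq2 gave 3 members with a higher response in VCaP-CT (FZD1, FZD5 and LEF1), where edgeR gave 0. With each library left out in turn, the members that rose and fell ranged between 4 and 11 and between 2 and 7 on depletion, and between 5 and 9 and between 4 and 15 on rechallenge. Members higher and lower in VCaP-CT ranged between 11 and 13 and between 7 and 12 in maintenance medium, 7 and 10 and 9 and 14 at 0.1 nM T, and 6 and 10 and 8 and 10 at 10 nM T. For the difference in response the ranges were 0 to 6 and 0 to 1, the 6 being without replicate 2 of depleted VCaP-T (FZD1, FZD4, FZD5, ROR1, RNF43 and LEF1). With a library left out, calls over all genes ranged between 906 and 5320 on depletion and between 1674 and 7184 on rechallenge. Shares of all genes were not counted for the lines in these fits or under the other alternatives. The cause of these shifts was not tested. On the deposited normalized values, 7 of 112 levels moved by over 1 SD.

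Same-numbered libraries did not deviate together (correlations of -0.16 to 0.05 over 18 pairs), so the numbers were not taken as pairs. With the replicate block 5 members rose and 3 fell on depletion, 6 rose and 5 fell on rechallenge, and the difference in response passed for 0 and 1 members. For the lines the block gave 11 higher and 10 lower in maintenance medium, 7 and 10 at 0.1 nM T, and 6 and 9 at 10 nM T. Depth limits the members at few counts, such as WNT11, SFRP4 and FZD10.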
